A study of Mus musculus with 43 samples.

Results

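The let-7 microRNA (miRNA) family was followed through the epididymis, its luminal fluid and cauda sperm of mice with and without the Rnase9-12 genes. The family was taken as 9 genes, 1 per mature form, each by the transcript that the tables list: Mirlet7a-1-201, Mirlet7b-201, Mirlet7c-1-201, Mirlet7d-201, Mirlet7e-201, Mirlet7f-1-201, Mirlet7g-201, Mirlet7i-201 and Mir98-201. They were 9 of 312 miRNA genes and 4890 RNAs counted in tissue, 9 of 331 and 3178 in fluid, and 9 of 394 and 4323 in sperm, and all 9 passed the filter on low counts in each of the 3 tables. All mice were of the FVB strain, 8 to 12 weeks old. WT mice carried the intact locus. KO mice were homozygous for a CRISPR-Cas9 deletion of the cluster that holds Rnase9, Rnase10, Rnase11 and Rnase12, genes related to angiogenin that are expressed in the epididymis, and came from 1 mouse line, so all KO libraries lack the 4 genes together and a single gene cannot be assigned an effect. The 43 libraries came from the caput, the corpus and the cauda, which are the proximal, middle and distal segments of the duct. Tissue was read by ARM-seq, with 3 WT libraries for each segment, 3 KO libraries for the caput and the cauda and 2 for the corpus. Fluid, freed of sperm, extracellular vesicles and debris by centrifugation, was read by OTTR-seq, with 3 WT and 3 KO libraries per segment. Cauda sperm was read by OTTR-seq in 4 WT and 4 KO libraries. A fluid or sperm library held the RNA of 3 mice, and pooling is not stated for tissue, so p-values measure the spread between libraries.

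miRNAs are short RNAs that guide Argonaute proteins to matching sites in messenger RNAs and lower their stability or translation. Recognition depends mostly on the seed, bases 2 to 8 from the 5′ end, so miRNAs with 1 seed can share targets. The let-7 family is among the most conserved miRNA families. It is abundant in differentiated tissues, is held low in stem cells by the LIN28 proteins, and targets include Hmga2, Ras genes and Lin28 itself. The epididymis is the duct in which sperm mature, and small RNAs of its lumen can reach the passing sperm.

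The mature sequences are shown since the single bases by which the forms differ decide on which gene a read is counted. All 9 were matched by name in RefSeq (GRCm38.p6). They are written 5′ to 3′ with the seed in capitals.
let-7a: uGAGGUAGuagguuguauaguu
let-7b: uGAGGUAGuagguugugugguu
let-7c: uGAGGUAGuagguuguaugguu
let-7d: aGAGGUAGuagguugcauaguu
let-7e: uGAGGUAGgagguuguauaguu
let-7f: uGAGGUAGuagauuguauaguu
let-7g: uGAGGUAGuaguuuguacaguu
let-7i: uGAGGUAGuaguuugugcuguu
miR-98: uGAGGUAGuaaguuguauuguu
All 9 forms were 22 bases long and had the same seed, which was held by 11 of 1679 mature mouse miRNAs in the table (0.655%). The other 2 were let-7k and miR-1961. With positions counted from 1 at the 5′ end and let-7a as the reference, let-7c differed by A19G, let-7e by U9G and let-7f by G12A. Each of these forms is thus 1 base away from let-7a. let-7b differed from let-7a by A17G and A19G, let-7d by U1A and U16C, let-7g by G12U and U18C, and miR-98 by G11A and A19U. let-7i was the most distant form, with G12U, A17G, U18C and A19U. let-7a and let-7c share their first 18 bases, and let-7g and let-7i their first 16. A read that ends within such a stretch matches both forms, and the authors counted reads on every feature matched equally well.

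In GRCm38 the genes lie on 7 chromosomes. Mirlet7a-1 (chr13:48538179-48538272), Mirlet7f-1 (chr13:48537829-48537917) and Mirlet7d (chr13:48536012-48536114) form a cluster on the minus strand, with 261 bases between the hairpins of let-7a and let-7f and 1714 between let-7f and let-7d, within an exon of the noncoding gene 6720427I07Rik. Mirlet7b (chr15:85707319-85707403, plus strand) lies in an exon of the noncoding gene Lncppara, 621 bases from Mirlet7c-2. Mirlet7c-1 (chr16:77599657-77599750, plus strand) lies in an intron of the noncoding gene Mir99ahg, 656 bases from Mir99a. Mirlet7e (chr17:17830352-17830444, plus strand) lies in an intron of Spaca6, a gene of sperm-egg fusion, 367 bases from Mir125a. Mirlet7g (chr9:106178840-106178927, plus strand) lies in an intron of Wdr82 and Mir98 (chrX:151913214-151913321, plus strand) in an intron of Huwe1, 785 bases from Mirlet7f-2. Mirlet7i (chr10:122985640-122985724, minus strand) overlaps an exon of the transcribed pseudogene D630033A02Rik. The second copies could not be told from the first. Summed over libraries, Mirlet7a-2 had 99.0% of the counts of Mirlet7a-1 in tissue, 101% in fluid and 94.3% in sperm. Mirlet7c-2 had 101% of the counts of Mirlet7c-1 in tissue and 104% in sperm, and 18866 against 18865 counts in fluid, and Mirlet7f-2 had 103%, 115% and 103% of the counts of Mirlet7f-1 in tissue, fluid and sperm. A gene's count also sums both arms of its hairpin, so values are given per gene and named after the mature form.

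Summed counts per library were 30142156 to 249732714 in tissue, 1948718 to 12320922 in fluid and 1134840 to 62128314 in sperm. miRNA genes held 0.0219% to 0.0618%, 0.130% to 0.812% and 0.0386% to 0.168% of them. The 9 let-7 genes had 508 to 13450 counts per tissue library, 609 to 5846 per fluid library and 28 to 4498 per sperm library. Among sperm libraries, WT replicates 2 and 3 had 28 and 63 let-7 counts. The section entry of WT caput tissue replicate 3 and of all 6 caput fluid libraries reads cauda while their titles read caput, and titles were followed. miRNA markers of epithelium (the miR-200 family) had counts in all 5 genes of every tissue library and summed to 7.57 to 25.9 counts per 1000000 (CPM). Smooth muscle markers (Mir143 and Mir145a) were highest in cauda tissue, with sums of 108 to 215 CPM in WT against 20.6 to 40.3 in the WT caput. Germ cell markers reached 28.1 to 82.9 CPM in WT sperm, and they summed to 3.85 to 5.99 CPM in WT caput fluid and 34.5 to 72.1 in WT cauda fluid. Fluid that had been freed of sperm thus still held counts of the miRNAs on this list, and the cells they came from were not tested. No count covers the deleted genes themselves, so the genotype could not be checked here.

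The 9 let-7 genes made up a similar part of miRNA gene counts in tissue and fluid and a smaller part in sperm. The 9 genes summed to 6.29% to 11.4% of miRNA gene counts in tissue, 5.29% to 13.9% in fluid and 2.50% to 6.70% in sperm. miRNA gene counts also hold the second copies Mirlet7a-2, Mirlet7c-2 and Mirlet7f-2, on which mostly the same reads are counted again. These values are thus shares of counts, not of reads, and lie below the part held by all let-7 genes. Levels were scaled within each table with trimmed mean of M values (TMM) factors and are given in CPM, without a division by length since all mature forms are 22 bases long. In WT tissue the family sum was 35.1, 15.6 and 33.1 CPM in the caput, 29.1, 41.4 and 35.1 in the corpus and 44.0, 21.3 and 34.8 in the cauda. The segments overlapped in every pairing, and their means were 27.9 ± 10.8 (SD, n = 3), 35.2 ± 6.19 (SD, n = 3) and 33.3 ± 11.4 (SD, n = 3) CPM. In WT fluid the sum was 352, 287 and 325 CPM in the caput, 143, 287 and 327 in the corpus and 419, 246 and 104 in the cauda. WT corpus replicate 1 and WT cauda replicate 3 were the low libraries, and the segments again overlapped. As a share of miRNA gene counts, WT cauda fluid (9.64, 7.19 and 5.29%) lay below WT caput fluid (10.3, 11.9 and 11.9%) without overlap. In WT sperm the sum was 38.8, 10.9, 33.3 and 123 CPM and in KO sperm 46.7, 77.99, 67.7 and 76.2 CPM. Tissue values cannot be set against fluid or sperm values in CPM because the library methods and the abundant RNAs differ. In these bulk libraries, fewer cells of a type and less RNA per cell cannot be told apart.

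**Figure D1:**
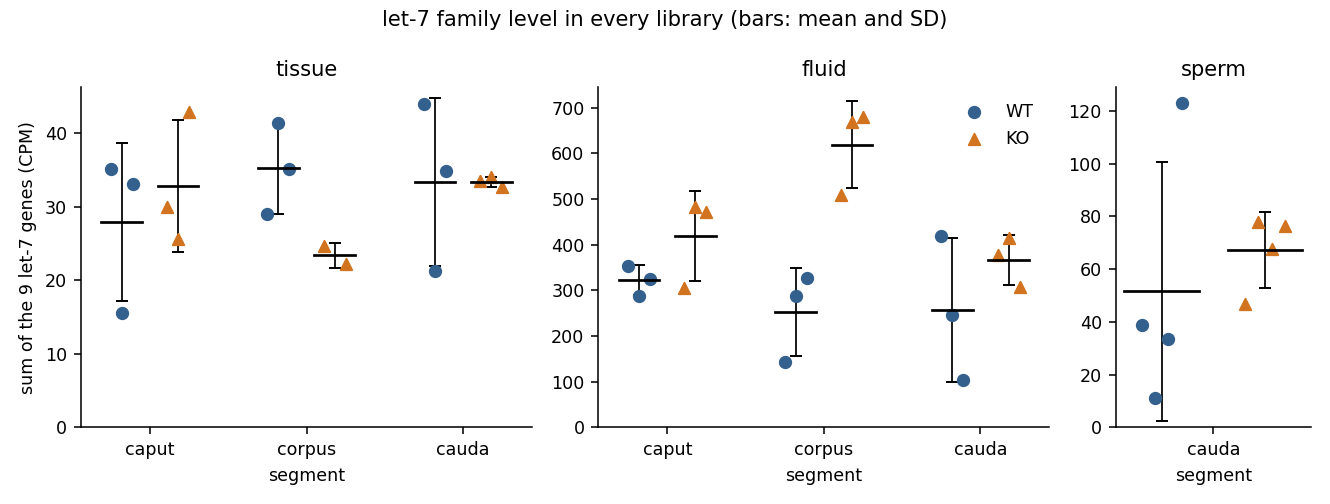
Sum of the 9 let-7 genes in CPM (vertical axes from 0, 1 scale per panel) for each tissue, fluid and sperm library, by segment. WT libraries are circles and KO libraries triangles, with the mean and SD in black. In corpus fluid the 3 KO libraries lie at 509 to 679 CPM, above the 143 to 327 CPM of WT.

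The forms that led the family differed between the segments of WT tissue. In the caput let-7c was the most counted form, with shares of 32.4%, 35.3% and 45.7% of the family counts. In the corpus its share was 21.7%, 22.7% and 27.2%, and in the cauda 25.96%, 26.4% and 29.2%. Every corpus and cauda library thus lay below every caput library. let-7b, which differs from let-7c by 1 base, went the same way, from 6.56%, 7.83% and 9.79% in the caput to 3.64%, 3.59% and 5.76% in the corpus and 3.77%, 4.13% and 4.63% in the cauda. let-7f held 18.0%, 18.6% and 12.9% in the caput, 25.8%, 25.1% and 19.1% in the corpus and 27.02%, 24.8% and 23.8% in the cauda. let-7i held 9.04%, 7.91% and 5.02%, 10.4%, 10.1% and 10.4% and 12.4%, 10.4% and 10.1% in the same order. For both, the caput libraries were the lowest, and all corpus and cauda libraries lay above them. let-7a was even, at 9.72% to 13.5%, 11.7% to 12.5% and 9.34% to 11.4%. In the corpus alone, let-7g (21.5% to 22.4%) and let-7d (2.65% to 3.53%) lay above the caput (13.1% to 17.9% and 1.80% to 2.39%). let-7e (0.308% to 0.631%) lay below it there (0.930% to 1.49% in the caput). For these 3 forms the cauda overlapped with the caput. These shares are descriptions, without a test between segments.

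let-7f and let-7i, the forms with larger shares in both distal segments, also had CPM log2 fold changes above 0 there. Neither passed the test when all tissue libraries were fitted without a replicate block. An RNA was called where edgeR's quasi-likelihood test gave an adjusted p under 0.05 and the log2 fold change exceeded 1 in either direction. No let-7 gene was called between WT corpus and WT caput tissue, where 11.8% of all RNAs tested were called, nor between WT cauda and WT caput (7.28% lower and 15.7% higher), WT cauda and WT corpus (3.41%) or KO cauda and KO caput (25.7%). At an unadjusted p under 0.05 there were 3, 2, 0 and 0 of the 9, beside 23.8%, 33.9%, 17.2% and 40.2% of all RNAs, and DESeq2 called none either. Between WT corpus and WT caput tissue the median log2 fold change of the 9 genes was 0.41, beside 0.90 over other miRNA genes and 0.079 over all RNAs. let-7f was at 6.32, 2.89 and 4.28 CPM in the caput and 7.51, 10.4 and 6.70 in the corpus, and let-7g at 6.27, 2.04 and 4.38 and 6.52, 8.96 and 7.54. Both groups were apart for these 2 genes, which were higher in the corpus (14.1% of all RNAs), and for let-7e, which was lower (9.12%). Between WT cauda and WT caput the median was 0.14, beside 0.38 over other miRNA genes. There the log2 fold change was 0.91 ± 0.369 (SE) for let-7f (adjusted p = 0.0851) and 0.88 ± 0.416 (SE) for let-7i (adjusted p = 0.147). Tissue libraries with the same replicate number deviated together in these WT segments. With the replicate number as a block, edgeR's adjusted p was 0.0245 for let-7f and 0.0357 for let-7i in the corpus, and 0.0201 and 0.0357 in the cauda, at log2 fold changes of 0.96 ± 0.298 (SE), 0.97 ± 0.323 (SE), 0.91 ± 0.296 (SE) and 0.89 ± 0.322 (SE). Both thus passed the p threshold in each distal segment in the blocked fit and stayed short of the fold threshold, except in a blocked fit of the caput and cauda libraries alone, where log2 fold changes of 1.02 ± 0.280 (SE) for let-7f and 1.02 ± 0.286 (SE) for let-7i passed both (edgeR adjusted p = 0.00345 and 0.00419). Without WT caput replicate 1 both were called too (log2 fold changes 1.37 and 1.49), and without WT cauda replicate 2 let-7f was (1.33). Smooth muscle markers rose over the same segments, Mir143 by 1.10 ± 0.347 (SE) in the corpus and 2.53 ± 0.362 (SE) in the cauda (edgeR adjusted p = 0.0492 and 7.14e-05). Their part in the let-7 values was not tested.

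**Figure D2:**
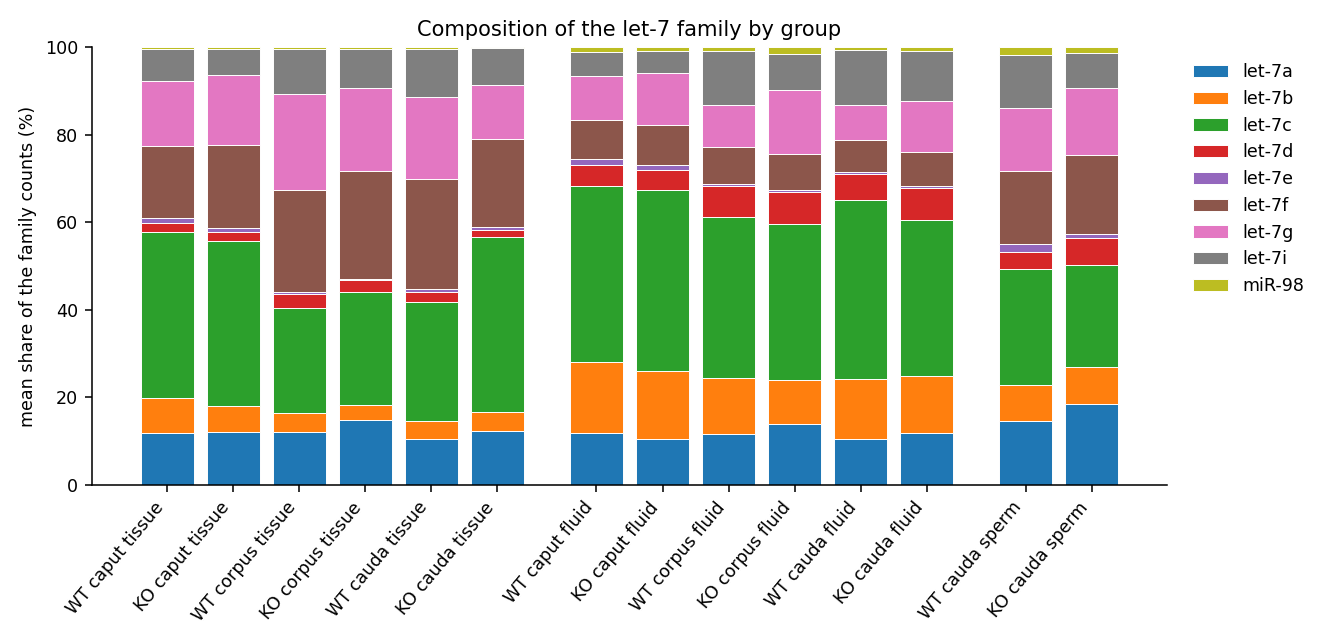
Mean share of each form in the summed counts of the 9 let-7 genes (percent, bars add to 100) in the 14 groups of tissue, fluid and sperm. let-7c leads in each group by its mean, and let-7b is broader and let-7f narrower in the fluid groups than in the tissue groups.

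Fluid held another mixture than tissue. In WT caput fluid let-7c had 39.0%, 40.9% and 40.5% of the family counts and let-7b 16.4%, 17.1% and 15.05%, while let-7b in WT tissue did not exceed 9.79%. let-7f had 8.15% to 9.26% in WT caput fluid against 12.9% to 18.6% in WT caput tissue. In sperm the shares of let-7a (17.2%, 7.14%, 19.0% and 15.3% in WT, 19.0%, 17.7%, 16.8% and 20.3% in KO) and let-7f (15.3%, 21.4%, 12.7% and 17.6% and 17.6%, 17.9%, 18.4% and 18.9%) were broad. In WT replicate 2 the let-7a share rests on 2 of 28 counts, with an exact Clopper-Pearson 95% interval of 0.877% to 23.5% that covers counting error only. The tables were normalized apart, and tissue was sequenced by another method, so materials and methods cannot be told apart and no test was made between them. By mean CPM, let-7c was first in each of the 14 groups. Its libraries overlapped with those of the second form in corpus tissue and sperm of both genotypes, WT caput and WT cauda tissue and WT cauda fluid. In WT caput fluid its libraries did not overlap with those of let-7b, the second form, nor did let-7b overlap with let-7a, the third. let-7a overlapped with let-7g and let-7g with let-7f, the next in order, while let-7f did not overlap with let-7i. In WT caput tissue let-7c, let-7f, let-7g, let-7a, let-7b and let-7i followed each other, each overlapping with the next. let-7e and miR-98 were the 2 lowest forms in each group, with 0 to 66 counts of miR-98 per library.

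let-7e was the only form called lower along the duct in fluid in the TMM fit. It was at 4.52, 3.50 and 5.69 CPM in the WT caput, 0.299, 1.51 and 2.01 in the corpus and 1.012, 1.497 and 0.510 in the cauda. In KO fluid it was at 3.48, 4.78 and 7.44 CPM in the caput and 1.90, 1.16 and 1.83 in the cauda. let-7b was at 20.5 to 37.8 CPM in the WT corpus against 49.0 to 57.9 in the WT caput. In the WT cauda let-7g was at 9.18 to 24.6 CPM against 28.3 to 38.2 in the WT caput. Groups of 3 against 3 libraries lie apart at random with a chance of 0.1, so these ranges are descriptions. let-7e was lower in the WT corpus than in the WT caput (log2 fold change -1.85 ± 0.561 (SE), edgeR adjusted p = 0.0261), in the WT cauda (-2.12 ± 0.557 (SE), adjusted p = 0.00848) and in the KO cauda against the KO caput (-1.66 ± 0.536 (SE), adjusted p = 0.0279). It was the only 1 of the 9 genes called in each of these comparisons, where 9.54%, 15.4% and 14.5% of all RNAs were called lower. A count of 1 in 9 is near these shares and does not set the family apart from other RNAs. The medians of the 9 genes were -0.41, -0.52 and -0.20, beside -0.11, 0.62 and 0.057 over other miRNA genes and -0.23, -0.17 and -0.10 over all RNAs. None was called between the WT cauda and the WT corpus (0 of 9 also at an unadjusted p under 0.05 and in DESeq2), where 2.17% of all RNAs were called and 28.3% had such a p. The depth behind let-7e was small, with 34, 20 and 38 counts in the WT caput, 2, 16 and 10 in the corpus and 11, 17 and 3 in the cauda. The direction held in all 14 alternatives of each comparison, but the adjusted p in these ranged from 0.00523 to 0.167 in the WT corpus, 0.00375 to 0.0804 in the WT cauda and 0.0157 to 0.131 in the KO cauda. Leaving out any library but WT corpus replicate 3 ended the call in the WT corpus, leaving out WT caput replicate 1 or 3 or WT cauda replicate 3 ended it in the WT cauda (log2 fold changes -1.94, -1.80 and -1.69), and leaving out any of the 6 KO libraries ended it in the KO cauda.

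The neighbours of let-7e in its cluster, Mir99b and Mir125a, were lower in WT corpus fluid as well (log2 fold change -1.24 ± 0.419 (SE) and -1.31 ± 0.401 (SE), edgeR adjusted p = 0.0437 and 0.0269). In WT cauda fluid their log2 fold changes were -0.74 and -0.91 and neither was called. The epithelial markers Mir200b and Mir429 also fell in WT corpus fluid (log2 fold change -1.74 ± 0.480 (SE) and -2.39 ± 0.614 (SE), edgeR adjusted p = 0.0154 and 0.00996), and the sum over all 5 epithelial markers was 27.1 to 62.6 CPM there against 103 to 182 in the WT caput. In KO cauda against KO caput fluid Mir429 fell too (-1.97 ± 0.580 (SE), edgeR adjusted p = 0.0180). Their part in the fall of let-7e was not tested. let-7i was lowest in the caput instead. It was at 20.6, 18.5 and 13.9 CPM in the WT caput, 23.9, 32.8 and 27.8 in the corpus and 45.3, 33.3 and 14.1 in the cauda. Its share of the family counts was 5.85%, 6.46% and 4.28% in the WT caput, 16.6%, 11.4% and 8.51% in the corpus and 10.8%, 13.5% and 13.6% in the cauda, so that all 6 distal libraries lay above the 3 caput libraries. The log2 fold change was 0.67 ± 0.415 (SE) in the WT corpus (adjusted p = 0.283), 0.81 ± 0.415 (SE) in the WT cauda (adjusted p = 0.152) and 0.99 ± 0.414 (SE) in the KO cauda (adjusted p = 0.0782), and let-7i did not pass edgeR's test. Without WT cauda replicate 3, a library low in all let-7 genes, it passed in the WT cauda (log2 fold change 1.28, edgeR adjusted p = 0.0301). With miRNA gene counts as the library size, miR-98 was called lower in WT cauda than in WT caput fluid (-1.39, edgeR adjusted p = 0.0393). In the TMM fit its log2 fold change was -1.18 ± 0.468 (SE) (adjusted p = 0.0682), from 3.86, 2.80 and 2.84 CPM to 1.84, 1.41 and 0.850 CPM.

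**Figure D3:**
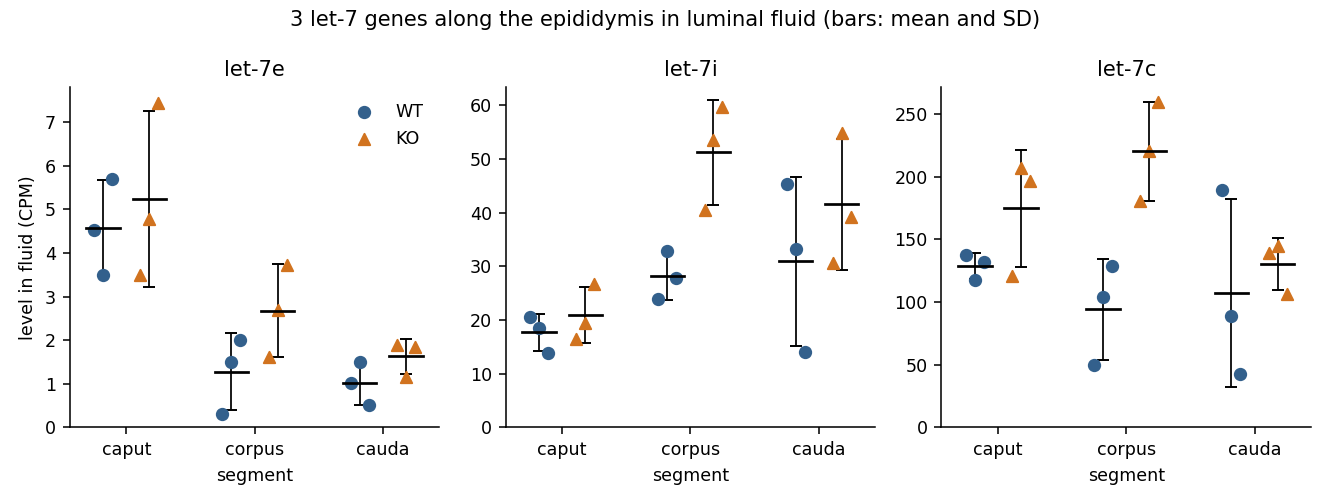
Levels of let-7e, let-7i and let-7c in fluid (CPM, vertical axes from 0) by segment, with 3 WT (circles) and 3 KO libraries (triangles) per segment and the mean and SD in black. let-7e is highest in the caput in both genotypes, at 3.50 to 5.69 CPM in WT, while let-7i is lowest there in WT by its mean.

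The corpus fluid was the only place where let-7 genes were called between KO and WT. let-7g was at 12.7, 29.8 and 32.0 CPM in WT and 74.997, 95.1 and 102 CPM in KO. Its log2 fold change was 1.87 ± 0.427 (SE) (95% interval 0.98 to 2.75, edgeR adjusted p = 0.00388). miR-98 was at 1.49, 1.51 and 4.03 CPM in WT and 7.62, 9.45 and 10.8 CPM in KO, with a log2 fold change of 2.02 ± 0.469 (SE) (95% interval 1.05 to 2.99, edgeR adjusted p = 0.00409). let-7a was at 16.7, 32.2 and 38.9 CPM in WT and 81.8, 87.8 and 84.1 CPM in KO, with a log2 fold change of 1.53 ± 0.432 (SE) (95% interval 0.64 to 2.43, edgeR adjusted p = 0.0175). The genotypes were well apart for each of the 3. For let-7c, the most counted form, WT libraries were at 50.02, 104 and 129 CPM and KO libraries at 180.5, 220.4 and 259.8 CPM (1.23 ± 0.449 (SE), adjusted p = 0.0575). let-7d had 7.47, 23.9 and 23.6 CPM in WT and 30.9, 67.8 and 40.2 in KO (1.34 ± 0.501 (SE), adjusted p = 0.0621). let-7f, let-7b and let-7i had log2 fold changes of 1.20, 0.99 and 0.86 (edgeR adjusted p = 0.0881, 0.125 and 0.147). In 8 of 9 genes every KO library lay above every WT library, where 20.4% of all RNAs did so. The exception was let-7e, at 0.299, 1.51 and 2.01 CPM in WT and 1.60, 2.70 and 3.73 in KO (1.08 ± 0.604 (SE), adjusted p = 0.220). Thus 3 of 9 were called higher, where 13.5% of all RNAs were.

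The rise in corpus fluid was shared by other miRNA genes. The median log2 fold change of the 9 genes was 1.23, beside 1.03 over 220 other miRNA genes, of which 51 were called higher, and 0.10 over all RNAs. The family sum was 252 ± 96.3 (SD, n = 3) CPM in WT and 619 ± 95.1 (SD, n = 3) CPM in KO, 2.45 times as high. Unscaled let-7 counts overlapped, at 961, 3044 and 1622 in WT and 1269, 2473 and 1638 in KO. Library totals did not overlap, at 6752462, 10172577 and 3989262 in WT and 2474993, 3373869 and 1948718 in KO. The part of this depth difference in the let-7 calls was not tested. As a share of miRNA gene counts the family sum was 6.93, 12.3 and 11.5% in WT and 13.7, 13.9 and 10.4% in KO, and the genotypes overlapped. With miRNA gene counts as the library size 7 of 9 genes were still above 0, let-7b and let-7i were at -0.014 and -0.19, the median was 0.23 and none was called by edgeR (0 at an adjusted p under 0.05, the smallest being 0.0829). The same scaling placed the median of all RNAs at -0.90. On that scale let-7g had a log2 fold change of 0.88 and miR-98 of 1.03 (edgeR adjusted p = 0.108 and 0.0829). let-7g was called in 13 of 14 alternatives, miR-98 in 12 and let-7a in 8. The adjusted p of let-7g ranged up to 0.108 over these alternatives, that of miR-98 up to 0.0829 and that of let-7a up to 0.269. Without WT replicate 2, 1 gene was called, let-7g, and miR-98 had a log2 fold change of 1.57 (edgeR adjusted p = 0.0657). let-7a also lost its call without WT replicate 1 or without KO replicate 1 or 2 (log2 fold changes 1.24, 1.49 and 1.42). Of 3 leukocyte markers tested, Mir142 and Mir150 rose in the same libraries (log2 fold change 2.17 ± 0.588 (SE) and 2.01 ± 0.540 (SE), edgeR adjusted p = 0.0135 and 0.0129), and all leukocyte markers summed to 14.2 to 19.8 CPM in WT and 20.5 to 80.8 in KO. The epithelial markers summed to 27.1 to 62.6 CPM in WT and 87.5 to 134 in KO. Their part in the let-7 values was not tested.

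**Figure D4:**
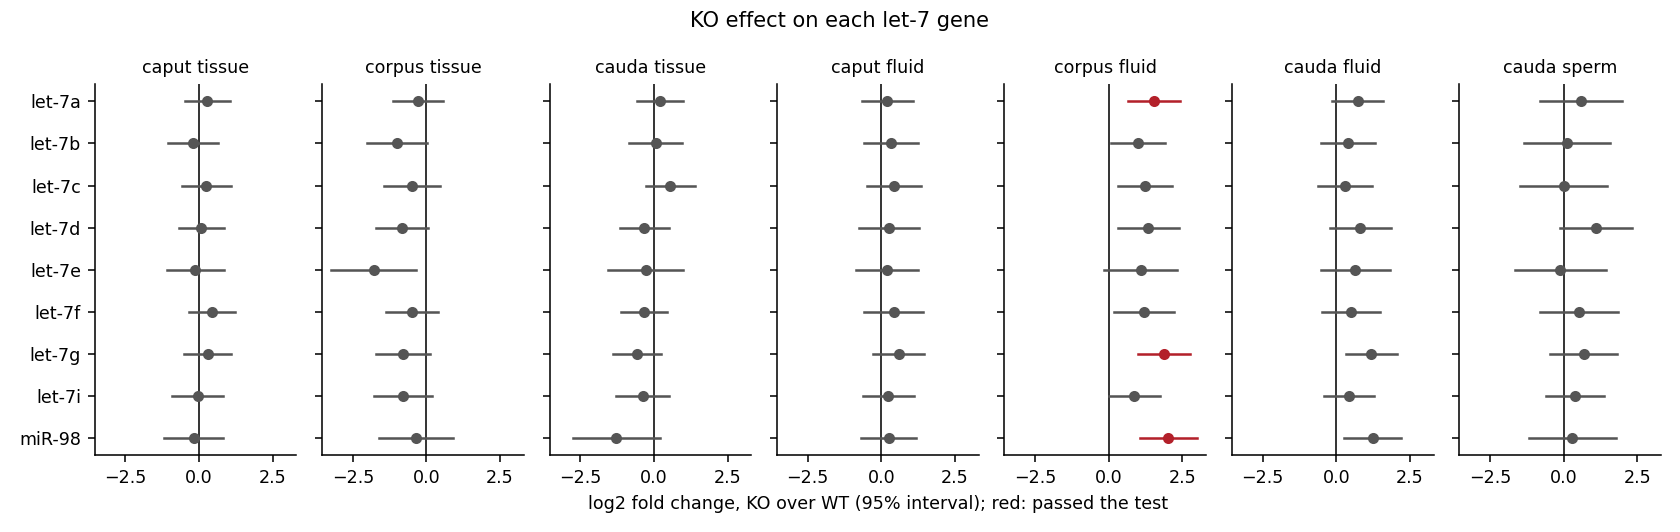
Log2 fold change of KO over WT for each let-7 gene (horizontal axis) with its 95% interval, in 7 panels for tissue, fluid and sperm. The 3 genes in red, all in corpus fluid, passed edgeR's test (adjusted p under 0.05, log2 fold change beyond 1 in either direction).

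In caput and cauda fluid all 9 genes had values above WT, and none was called. Of all RNAs, 0.00% and 0.00% were called. At an unadjusted p under 0.05 there were 0 of 9 in the caput and 2 in the cauda, beside 10.6% and 9.29% of all RNAs, and DESeq2 called none of the 9. The medians were 0.27 in the caput, beside 0.50 over other miRNA genes and 0.012 over all RNAs, and 0.64 in the cauda, beside 0.10 and 0.091. With miRNA gene counts as the library size 8 of the 9 caput values turned negative, whereas all 9 cauda values stayed positive. Without WT cauda replicate 3, let-7c turned negative in the cauda (-0.024) and the median was 0.42. In caput fluid the epithelial markers summed to 103 to 182 CPM in WT and 241 to 298 in KO, and the leukocyte markers to 8.38 to 11.6 and 13.8 to 20.01, both without overlap, while in cauda fluid both lists overlapped (75.1 to 132 and 76.4 to 182 CPM, 22.3 to 43.3 and 18.6 to 41.9 CPM). None of these markers was called, and their part in the let-7 values was not tested. In cauda fluid let-7g was at 24.6, 22.5 and 9.18 CPM in WT and 45.9, 49.2 and 33.9 CPM in KO (1.19 ± 0.418 (SE), edgeR adjusted p = 0.297). miR-98 was at 1.84, 1.41 and 0.850 CPM in WT and 2.60, 3.61 and 3.83 CPM in KO (1.24 ± 0.464 (SE), edgeR adjusted p = 0.355). These were the 2 genes whose genotypes did not overlap in the cauda, where 6.03% of all RNAs were higher without overlap. In caput fluid let-7g was the only 1 of the 9 without overlap (13.3% of all RNAs), at 38.2, 28.3 and 32.0 CPM in WT and 39.6, 54.8 and 53.4 CPM in KO (0.58 ± 0.413 (SE), edgeR adjusted p = 0.688). Differences of the KO effect between the segments of fluid were tested as interaction terms. None was called in edgeR. The corpus effect exceeded the caput effect by 1.78 ± 0.643 (SE) on the log2 scale for miR-98, 1.28 ± 0.586 (SE) for let-7g and 1.33 ± 0.600 (SE) for let-7a (adjusted p = 0.178, 0.328 and 0.322).

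Within the family, let-7g held a larger share of the counts in KO fluid than in WT fluid. Its share of the family counts in the corpus was 8.84%, 10.4% and 9.80% in WT and 14.7%, 14.2% and 15.02% in KO. In the caput it was 10.8%, 9.87% and 9.85% in WT and 12.95%, 11.4% and 11.3% in KO, and in the cauda 5.86%, 9.16% and 8.87% in WT and 12.2%, 11.8% and 11.1% in KO. In each of the 3 segments every KO library lay above every WT library, by 1.71 percentage points on average in the caput, 4.99 percentage points in the corpus and 3.74 percentage points in the cauda. A share does not depend on the scaling of the libraries. Shares of let-7a were higher without overlap in the corpus (11.2% to 11.9% in WT, 12.4% to 16.1% in KO) and in the cauda (9.41% to 11.2% and 11.3% to 12.5%), as was that of miR-98 in the corpus (0.526% to 1.23% and 1.42% to 1.59%), whereas let-7b had a lower share in the corpus (11.3% to 14.3% and 9.65% to 10.8%). A 2-sided exact permutation test of 3 against 3 libraries cannot give a p below 0.1, which each of these shares had, so none could pass, and the smallest p after Benjamini-Hochberg adjustment over 63 shares was 0.485. In all, 16 of the 63 shares did not overlap between genotypes. Among these, KO shares were lower for let-7b in caput tissue and for let-7e, let-7g and let-7i in corpus tissue, and higher for let-7a in corpus tissue. Libraries labelled at random lie apart with a chance of 0.1 at 3 against 3, 0.2 at 3 against 2 and 0.0286 at 4 against 4. The shares of a library also depend on each other, so the count of 16 was not tested.

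**Figure D5:**
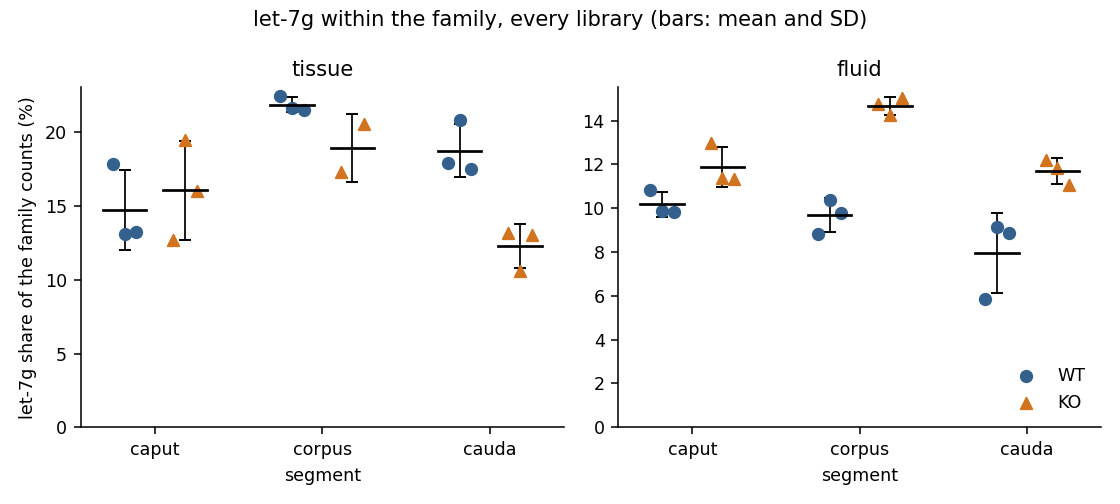
Share of let-7g in the summed counts of the 9 let-7 genes (percent, vertical axes from 0) in tissue (left) and fluid (right) by segment, with WT libraries as circles, KO libraries as triangles and the mean and SD in black. KO lies above WT in each fluid segment. KO lies below WT in corpus tissue, at 17.3% and 20.5% against 21.5% to 22.4%, and in cauda tissue, at 10.6% to 13.2% against 17.5% to 20.8%.

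In tissue no let-7 gene was called between KO and WT, in the caput, where 0.00% of all RNAs were called, in the corpus (0.00%) or in the cauda (0.860%). At an unadjusted p under 0.05 there were 0, 1 and 0 of the 9, beside 0.975%, 8.00% and 15.1% of all RNAs, and DESeq2 called none of the 9. In the caput the 9 log2 fold changes lay between -0.21 and 0.44. The widest of their 95% intervals, that of miR-98, was -1.19 to 0.82, and the narrowest, that of let-7a, was -0.48 to 1.04, so smaller changes were not detectable. In the corpus the family sum was 29.1, 41.4 and 35.1 CPM in WT and 24.6 and 22.2 CPM in KO, without overlap. All 9 log2 fold changes were negative, with a median of -0.80, beside -1.05 over other miRNA genes and -0.04 over all RNAs. With miRNA gene counts as the library size 5 of 9 were negative and the median was -0.25. Marker sums were lower in the same KO libraries. Smooth muscle markers summed to 44.2 to 87.5 CPM in WT and 24.3 to 29.5 in KO, epithelial markers to 16.3 to 25.9 and 10.5 to 10.7, leukocyte markers to 0.125 to 0.151 and 0.0664 to 0.0718, and red cell markers to 0.0443 to 0.108 and 0.0111 to 0.0144. These 4 lists did not overlap between genotypes, no marker was called, and their part in the let-7 values was not tested. The 3 WT and 2 KO libraries did not overlap for let-7b, let-7d, let-7e, let-7g and let-7i, each lower in KO, where 15.2% of all RNAs were. let-7g was at 6.52, 8.96 and 7.54 CPM in WT and 4.25 and 4.56 CPM in KO (-0.80 ± 0.432 (SE), edgeR adjusted p = 0.650). let-7e was at 0.0896, 0.209 and 0.221 CPM in WT and 0.0718 and 0.0332 CPM in KO, on 5, 9 and 50 and 5 and 3 counts (-1.79 ± 0.684 (SE), edgeR adjusted p = 0.525).

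In cauda tissue the family sum overlapped between genotypes (33.3 ± 11.4 (SD, n = 3) CPM in WT and 33.4 ± 0.664 (SD, n = 3) CPM in KO), while the shares of 4 forms did not. let-7c had 25.96%, 26.4% and 29.2% of the family counts in WT and 32.3%, 47.9% and 40.0% in KO. let-7g had 17.9%, 20.8% and 17.5% in WT and 13.2%, 10.6% and 13.05% in KO, and let-7f 27.02%, 24.8% and 23.8% in WT and 23.4%, 15.3% and 21.4% in KO. For these 3 forms and for miR-98 the genotypes did not overlap, with an exact permutation p of 0.1 each, the smallest possible. The KO cauda shares of let-7c lay near those of the caput of both genotypes (32.4% to 45.7% in WT, 33.3% to 41.7% in KO). In CPM, let-7g was at 7.87, 4.43 and 6.09 in WT and 4.42, 3.59 and 4.26 in KO (-0.58 ± 0.382 (SE), edgeR adjusted p = 0.496). miR-98 was at 0.199, 0.0763 and 0.104 CPM in WT and 0, 0.0367 and 0.0706 CPM in KO, on 6, 2 and 24 and 0, 1 and 5 counts (-1.27 ± 0.700 (SE), edgeR adjusted p = 0.415). Both were lower in every KO library, where 10.1% of all RNAs were, and a count of 0 allows up to 3 counts in that library. Smooth muscle markers summed to 108 to 215 CPM in WT and 107 to 140.3 in KO, and epithelial markers to 8.67 to 15.7 and 7.79 to 13.1 CPM. Both lists overlapped between the genotypes.

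In cauda sperm no let-7 gene was called between KO and WT, where 0.00% of all RNAs were. None had an unadjusted p under 0.05, which 17.5% of all RNAs had, and DESeq2 called none of the 9. The median log2 fold change was 0.37, beside 0.26 over other miRNA genes and -0.0028 over all RNAs. let-7d had the largest value (1.08 ± 0.566 (SE), edgeR adjusted p = 0.361), with 1.96, 0.390, 1.06 and 4.34 CPM in WT and 2.34, 4.67, 4.35 and 5.83 CPM in KO. let-7c was at 8.33, 1.95, 11.1 and 41.2 CPM in WT and 11.1, 19.2, 15.9 and 16.1 CPM in KO (0.0017 ± 0.681 (SE), adjusted p = 0.999). The WT libraries spanned the KO libraries for let-7c. WT replicate 4 was the highest and WT replicate 2 the lowest sperm library in the family sum, while the KO libraries lay between them. Without WT replicate 4 all 9 values were positive with a median of 1.19, and let-7f was called (log2 fold change 1.52, edgeR adjusted p = 0.0438). With only the 6 sperm libraries of at least 100 let-7 counts, a choice made after the counts were seen, 3 of 9 values were positive with a median of -0.094 and none was called. The sign of the sperm values thus changed with the libraries included. Library totals were 52607365, 2899859, 1134840 and 3025269 in WT and 44325673, 42764979, 62128314 and 3618739 in KO. The part of this depth difference in the sperm values was not tested.

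Pearson's r of log2 CPM over the 36 pairs of members had a median of 0.26 in 17 tissue libraries, 0.78 in 18 fluid libraries and 0.85 in 8 sperm libraries, and ranged down to -0.18 in tissue and in fluid. These are descriptions over libraries that share segments, genotypes and scaling. The miRNA genes outside the family whose log2 CPM was most like that of the family sum were Mir7j (r = 0.82), Mir10a (0.82) and Mir221 (0.80) of 154 in tissue, Mir26b (0.84), Mir23b (0.83) and Mir126a (0.82) of 183 in fluid, and Mir27a (0.98), Mir23a (0.97) and Mir125b-1 (0.97) of 162 in sperm. The miRNA genes that share clusters with let-7 genes did not all follow them. Of the 6 cluster partners (Mir99a, Mir125b-2, Mir100, Mir125b-1, Mir99b and Mir125a), none was called between KO and WT in any material, and Mir100 did not pass the filter in sperm. Mir99a, the partner of let-7c, rose along WT tissue by 1.41 ± 0.383 (SE) in the corpus and 1.91 ± 0.388 (SE) in the cauda (edgeR adjusted p = 0.0209 and 0.00136), where let-7c had log2 fold changes of -0.34 and -0.24. Mir99a also rose in KO cauda against KO caput tissue (1.32 ± 0.384 (SE), edgeR adjusted p = 0.0167) and in WT cauda against WT caput fluid (1.14 ± 0.359 (SE), edgeR adjusted p = 0.0238). Reads of Mirlet7c-1 and Mirlet7c-2 cannot be told apart, so the value of let-7c need not be that of the Mir99a cluster.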

How the data were processed

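RNA was treated with T4 polynucleotide kinase and read by ARM-seq (17 tissue libraries) or OTTR-seq (18 fluid and 8 sperm libraries). The deposited values are raw counts per RNA, which the authors made with cutadapt and a modified tRAX, aligning with bowtie2 to mm10, mature tRNAs and rRNAs. UMI-tools is named in the submitters' processing notes. Non-tRNA reads under 16 bases were left out by the authors, and a read was counted on every feature it matched equally well. Totals are sums over these features. All columns were mapped to samples, with 0 left over.

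Counts were fitted per table with edgeR 4.0.16 in R 4.3.3 (TMM factors, filterByExpr with a minimum count of 10 and total of 15, all groups in 1 quasi-likelihood fit), and p-values were adjusted with Benjamini-Hochberg over the 3488, 2023 and 2480 RNAs tested in tissue, fluid and sperm. Scripts were tested on simulated data. The number of libraries limits the precision. Shares of family counts were compared with 2-sided exact permutation tests, and intervals of counts cover counting error only. Alternatives were other size factors (DESeq2, library totals, miRNA gene counts), DESeq2 1.42.0, no filter, a replicate block, only the groups compared, and leaving out each library. Leaving out sperm libraries of under 100 let-7 counts was chosen after seeing the data. The replicate numbers paired WT tissue segments (lowest correlation of deviations 0.29), KO caput and KO cauda tissue (0.18) and WT and KO cauda tissue (0.27), where each was above 0.1. In KO caput against KO cauda tissue, however, only 3 of 6 libraries correlated best with their own number. Named are the 9 genes, their copies, their cluster partners, markers from fixed lists and, per table, the 3 miRNA genes most like the family sum. Members and lists were chosen with earlier results of these data known.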

Additional observations from a re-analysis of the deposited data

Results flagged for a closer look

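In corpus tissue 4 let-7 genes were lower in both KO libraries than in any WT library, and in corpus fluid the same 4 were higher in all KO libraries than in any WT library. let-7e, the fifth gene without overlap in corpus tissue, overlapped in corpus fluid. Of 1830 RNAs tested in both materials, 71 (3.88%) had this opposite order in the corpus and 18 (0.984%) in the cauda. The opposite directions in the corpus were shared by other miRNA genes. Their median log2 fold change was -1.05 in corpus tissue (140 of 160 negative) and 1.03 in corpus fluid (196 of 220 positive). In the cauda it was -0.26 in tissue and 0.10 in fluid. The log2 fold change was -0.80 in tissue and 1.87 in fluid for let-7g, -0.82 and 1.34 for let-7d, -1.01 and 0.99 for let-7b, and -0.80 and 0.86 for let-7i. The same opposite order held in the cauda for let-7g (-0.58 in tissue and 1.19 in fluid) and miR-98 (-1.27 and 1.24). The difference between tissue and fluid was not tested, since the tables came from different library methods. With miRNA gene counts as the library size let-7b and let-7i were below 0 in corpus fluid as well (-0.014 and -0.19). let-7e stood apart in 1 sperm library, WT cauda sperm replicate 4, at 1.81 CPM, where the other 3 WT sperm libraries were at 0.266, 0.390 and 0.529 CPM. It was 1 of 20 groups of libraries tested for a far value with Dixon's test, and chance flags about 1 in 20.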

How the results depend on the processing

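Under the scaling, tool, filter, sample and leave-one-out alternatives, let-7g, miR-98 and let-7a in KO against WT corpus fluid and let-7e in the 3 segment comparisons of fluid, the genes called in the report, kept their sign. The number of let-7 genes called in KO against WT corpus fluid was 3, and 0 with miRNA gene counts as the library size, 7 with a replicate block fitted to the 2 groups alone, and 1 to 3 when leaving out 1 library each. In WT corpus against WT caput fluid it was 1, and 0 with library totals, with miRNA gene counts or with no filter on low counts, and 0 to 1 when leaving out 1 library. In WT cauda against WT caput fluid it was 1, and 2 with miRNA gene counts and 0 to 1 when leaving out 1 library. In KO cauda against KO caput fluid it was 1, and 0 with library totals, with miRNA gene counts, with no filter or when leaving out any 1 library, and 2 in DESeq2, which added let-7i. In WT cauda against WT caput tissue it was 0, and 2 with a replicate block fitted to the 2 groups alone and 0 to 2 when leaving out 1 library. In KO cauda against KO caput tissue it was 0, and 1 with library totals (let-7e, -1.69). In sperm it was 0, and 0 to 1 when leaving out 1 library. The causes were not tested. The log2 ratio of the family sum moved with the denominator. In KO against WT corpus fluid it was 1.29, and 0.30 as a share of miRNA gene counts, and in caput fluid that share gave -0.17. In corpus tissue the share gave -0.065 and library totals -0.91, in cauda tissue totals gave -0.60, and in KO cauda against KO caput tissue the share gave -0.26 and totals -0.83. These scalings also moved the median of all RNAs, to -0.90 in corpus fluid and 0.45 in corpus tissue with miRNA gene counts, and to -0.42 in cauda tissue and -0.73 in KO cauda against KO caput tissue with totals. Taking the copy with the higher count moved no difference of shares by more than 1.48 percentage points and changed the sign of 2.

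The replicate numbers did not pair WT and KO fluid or sperm. In corpus fluid 3 of 6 libraries correlated best with their own number in the other genotype, in caput fluid 0 of 6, in cauda fluid 3 of 6 and in sperm 2 of 8. The lowest correlations of deviations were -0.054, -0.23, -0.085 and -0.21 in the same order. Between fluid segments, 6 of 6 libraries correlated best with their own number for WT caput and WT corpus (lowest correlation 0.058) and for KO corpus and KO cauda (0.13). It was 4 of 6 for WT caput and WT cauda (0.097) and 2 of 6 for KO caput and KO cauda (0.0055). The labels do not state whether fluid segments came from the same mice. With the replicate block across a whole table, let-7 calls stayed at 3 in KO against WT corpus fluid and 0 in sperm, where the median was 0.77, and the block changed no other call than those given here. Depth limits let-7e and miR-98, which had under 10 counts in several libraries, and all forms in WT sperm replicates 2 and 3.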
